A study of Rattus norvegicus with 12 samples.

Results

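The genes described here are the rat genes for voltage-gated sodium, potassium and calcium channels, the hyperpolarization-activated HCN channels, and their auxiliary subunits. They were selected on their symbols and on their level: a symbol beginning with Scn, a number and a or b, or with Kcn, Cacn or Hcn, and a mean of at least 1 CPM (a gene's count as a share of its library's total, scaled to 1e6) over all 12 libraries. In the deposited table of 31177 genes, 135 rows matched by symbol and 112 of them reached that level, and all 112 had enough counts to be tested. Just below the limit stood Kcnh8 at 0.846 CPM and just above it Kcnrg at 1.04 CPM. The symbol rule also takes potassium channels that do not open on depolarization, namely 13 inward rectifiers (Kcnj) and 10 leak channels with paired pores (Kcnk). It further takes the potassium channels opened by calcium or sodium, and Kcnrg, which encodes a regulator and no channel. For 7 of the 112 genes the mean was under 1 CPM in at least 1 group, so that they were included through the groups where they were higher: Scn7a, Kcne4, Kcne5 and Kcnn4 in Sham, Kcnj13 and Kcnq1 in AD, and Kcnrg in AD and AD-HFD. The potassium channel gene Kcnd2 and the calcium channel gene Cacna1i are not analysed here.

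RNA came from brain in 3 groups of 4 libraries: Sham, the controls, AD, a model of Alzheimer's disease, and AD-HFD, that model with a high-fat diet. The labels do not give how the model was made, the strain, sex, age, brain region or length of the diet, nor whether each library is a separate animal, so the p-values measure the spread between these libraries. Diet without the model was not analysed here. The labels call the animals mice, but the organism field names rat, as do the Ensembl gene identifiers.

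Voltage-gated channels are pores that open when the membrane potential changes. Sodium channels carry the upstroke of the action potential, potassium channels end it and set the firing rate, calcium channels couple it to transmitter release and gene regulation, and HCN channels carry a pacemaker current at negative potentials. Each pore is built from large alpha subunits, and smaller auxiliary subunits set how many channels reach the membrane and how they gate. Most of these genes are transcribed mainly in neurons, and some of them are typical of glia, vessels or the choroid plexus.

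The level of channel RNA differed strongly between libraries of the same group. Summed over the 112 genes, it was 7798, 6360.0, 6984 and 7614 CPM in Sham-1 to Sham-4, 6797, 5761, 4991 and 5112 CPM in AD-1 to AD-4, and 2259.6, 3042, 6028 and 1642 CPM in AD-HFD-1 to AD-HFD-4. Total counts ran from 26668974 to 35351792 per library. General neuron markers moved alongside: the mean log2 CPM of 14 such genes was 8.72 to 9.02 in Sham, 8.29 to 8.83 in AD, and 7.23, 7.65, 8.49 and 6.51 in AD-HFD-1 to AD-HFD-4. In AD-HFD-3 82 of the 112 channel genes had their highest level of the AD-HFD group, against 33.9% of all genes tested, and in AD-HFD-4 84 had their lowest, against 31.5%. Region markers differed too. The mean log2 CPM of 11 genes of excitatory neurons of cortex and hippocampus was 6.64 to 6.98 in Sham, 1.96, 1.21, 5.63 and 2.48 in AD-1 to AD-4, and 4.62, 5.1, 6.6 and 4.39 in AD-HFD-1 to AD-HFD-4. The mean log2 CPM of 12 thalamus genes was 1.76 to 2.5 in Sham, 6.47, 3.85, 1.89 and 5.91 in AD-1 to AD-4, and 2.11 to 2.77 in AD-HFD. That of 6 midbrain and raphe genes was -0.14 to 0.02 in Sham, 2.69, 7.2, 0.21 and 2.21 in AD-1 to AD-4, and -0.44 to 0.60 in AD-HFD, so that AD-1 and AD-4 stood out for thalamus genes and AD-2 for midbrain genes. AD-4 also stood out for 10 hypothalamus genes, with a mean log2 CPM of 5.08. Every other library lay between -1.59 (Sham-1) and 1.07 (AD-HFD-2) for that list. The part of these differences in the channel results was not tested. In bulk RNA, fewer neurons and less channel RNA per neuron cannot be told apart.

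**Figure D1:**
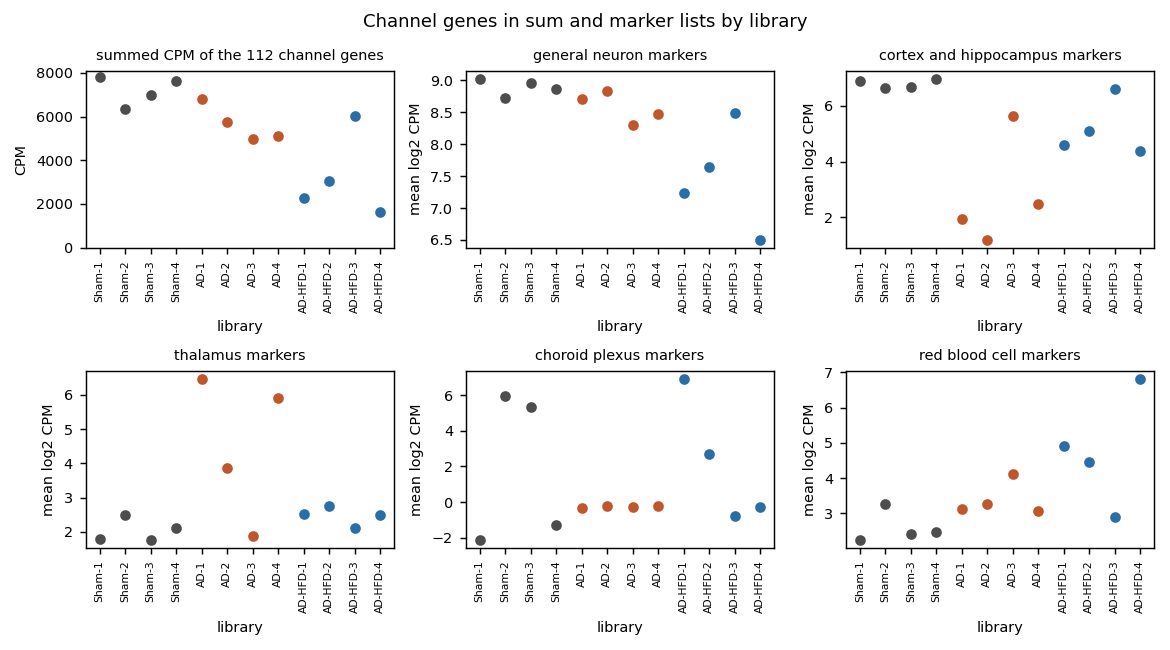
Each point is 1 library (grey Sham, orange AD, blue AD-HFD). The first panel gives the summed level of the 112 channel genes in CPM on a linear axis from 0, and the other panels give the mean log2 CPM of a marker list. The 3 lowest summed levels were those of AD-HFD-4, AD-HFD-1 and AD-HFD-2, in the same order as the 3 lowest values of the neuron list, while AD-HFD-3 stood within the range of the AD libraries.

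In AD against Sham, 14 of the 112 channel genes passed the test. Those that fell were Cacng3 and Cacnb3, auxiliary subunits of glutamate receptors and calcium channels, the silent potassium channel subunits Kcnv1, Kcng1 and Kcns1, the potassium channel genes Kcnq5, Kcnh4 and Kcnt2, and Kcnip3, a calcium-binding partner of potassium channels. Hcn4, a pacemaker channel gene, and the potassium channel genes Kcne5, Kcnk10, Kcnj14 and Kcnn3 rose. The count of 9 lower genes is 8.04% of the channel genes, where 3.16% of all 18850 genes tested were called lower, and the 5 higher genes are 4.46%, where 3.07% of all genes were called higher. Kcne5 is among the genes under 1 CPM in Sham, and without such genes 4 were called higher. The groups did not overlap, with all 4 AD libraries below all 4 Sham libraries, for 30 channel genes (11.3% of all genes), and with all above for 8 (10.3% of all genes). The median log2 fold change was -0.35 over the channel genes and 0.06 over all genes tested, and 47 of 112 lay above 0 (42.0%, against 54.9% of all genes).

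These counts rested on which libraries were used. Of the 14 calls, those of Cacng3 and Cacnb3 held whichever library was left out. The other 12 were each lost without at least 2 of the 12 libraries, with adjusted p up to 0.143 by edgeR's quasi-likelihood test, and none changed sign. The number of channel genes called fell to between 2 and 5 when any 1 Sham library was removed (2 for Sham-1, 5 for Sham-2, 3 for Sham-3 and for Sham-4), and to 5 when AD-1 was removed, 7 for AD-2 and 2 for AD-4. In these fits 1.56% to 3.78% of all genes were called, against 6.23% with all libraries. The number rose to 32 without AD-3 (12.1% of all genes were then called), to 27 without AD-HFD-3 (11.8%) and to 22 without AD-HFD-4 (9.34%), so that the calls over all genes moved in the same direction. AD-HFD libraries enter this comparison through the shared estimate of spread.

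In AD-HFD against AD, none of the 112 channel genes passed edgeR's quasi-likelihood test, and neither did nearly any other gene: 2 of all 18850 genes were called higher (0.0106%) and 0 lower (0%). At an unadjusted p under 0.05, 35 channel genes were lower and 6 higher, where 13.4% of all genes were lower and 17.1% higher at that limit, so that lower genes were 31.2% of the channel genes and higher genes 5.36%. DESeq2 called 32 lower and 4 higher, where it called 8.22% of all genes lower and 9.35% higher. The 8 channel genes ranked first by p were Scn4b, Kcnmb2, Kcnh2, Kcnc2, Kcna1, Kcnj16, Kcna6 and Kcnip1, all at lower levels in AD-HFD and all with an adjusted p of 0.0605, which 3 further channel genes shared (Kcnc1, Kcng4 and Kcnj14). Among the 8 the largest log2 fold changes were those of Kcnj16, -3.77 ± 0.877, Scn4b, -3.09 ± 0.497, and Kcnc2, -2.43 ± 0.545. The median log2 fold change was -0.53 over the channel genes and 0.04 over all genes, and 30 of 112 lay above 0 (26.8%, against 52.6% of all genes). Without AD-3 the test called 40 channel genes, 33 of them lower, with 30.3% of all genes called, and without AD-HFD-3 it called 58, 53 of them lower, with 27.6% of all genes called.

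In AD-HFD against Sham, 41 of the 112 channel genes passed the test, 34 lower and 7 higher. The lower genes included sodium channel alpha and beta subunits, with Scn4b lowest relative to Sham, and genes of nearly every potassium and calcium channel class. The higher genes were Kcnn4, Kcne4, Kcnj8, Kcnk5, Kcnk10, Kcnn3 and Hcn4. The lower genes are 30.4% of the channel genes, where 12.9% of all genes tested were called lower, and the higher genes are 6.25%, where 19.7% of all genes were called higher. All 4 AD-HFD libraries lay below all 4 Sham libraries for 40 channel genes (16.2% of all genes), and above them for 7 (18.9% of all genes). The median log2 fold change was -0.88 over the channel genes and 0.03 over all genes, and 16 of 112 lay above 0 (14.3%, against 51.6% of all genes). Kcne4 and Kcnn4 are among the genes under 1 CPM in Sham, and without such genes 5 were called higher and 34 lower. The general neuron list moved with these genes, with 10 of its 14 genes called lower and none higher in the same comparison and a median of -1.34. Each pair of the 3 comparisons shares a group of libraries, so they are not independent.

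Of the 41 calls, 18 held whichever library was left out: higher Kcne4, Kcnj8, Kcnk10 and Kcnn4, and lower Cacnb3, Cacng3, Kcnip4, Kcnj3, Kcnj9, Kcnk1, Kcnk4, Kcnmb2, Kcnn2, Kcnq5, Kcns1, Kcnt2, Scn1a and Scn4b. The other 23 were each lost without at least 2 libraries, with adjusted p up to 0.123, and none changed sign. The number called fell to 20, 27 and 19 without Sham-1, Sham-3 and Sham-4, and to 23, 24 and 23 without AD-HFD-1, AD-HFD-2 and AD-HFD-4. In these fits 18.2% to 23.2% of all genes were called, against 32.7% with all libraries. Without AD-HFD-3 it rose to 74, with 44.6% of all genes called. With AD-HFD-3 as the only AD-HFD library, the median log2 fold change was -0.17 over the channel genes and -0.03 over all genes.

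**Figure D2:**
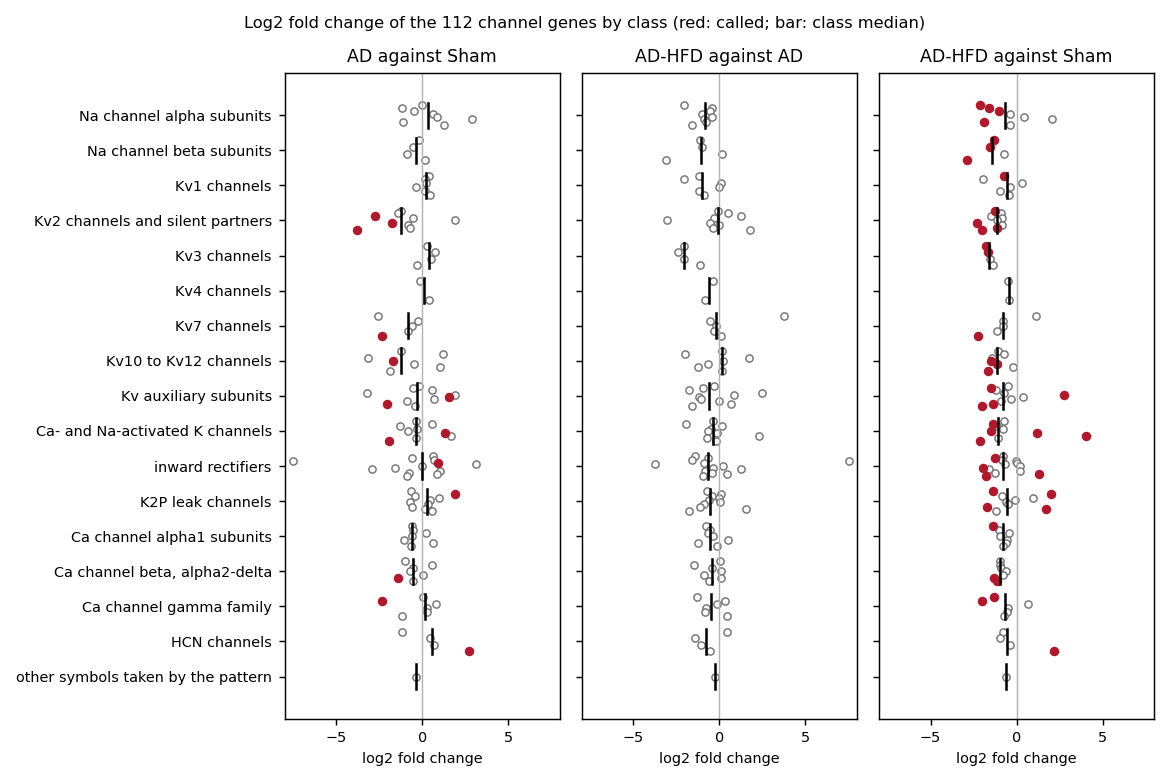
Each point is 1 of the 112 channel genes, placed by its log2 fold change on the horizontal axis and by its class on the vertical axis, with 1 panel for each comparison. Filled red points passed the test and black bars are class medians; in AD-HFD against Sham 34 red points lie left of 0 and 7 right of it, and in AD-HFD against AD none is red.

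The bases before the transcription start are given for Cacng3 and Cacnb3, the 2 genes lower than Sham in both AD and AD-HFD whichever library was left out, and for Kcnj8 and Kcne4, higher in AD-HFD whichever library was left out. RefSeq's promoter table for build GRCr8 held a full window for 72 of the 112 genes. The higher calls of Kcnk10 and Kcnn4 held as well, but these genes had no full window. Windows of further genes with lower calls that held are not shown, among them Scn4b, which had 0 of the matches marked below. The windows are the 250 bases upstream of the annotated start, on the gene's strand, 5′ to 3′. Capitals mark the letters of a GC box (GGGCGG, bound by Sp1-type factors) or of the left part of an RE1 element (TTCAGCACC, part of the site of the repressor REST), on either strand, and the matches shown do not overlap.
Cacng3: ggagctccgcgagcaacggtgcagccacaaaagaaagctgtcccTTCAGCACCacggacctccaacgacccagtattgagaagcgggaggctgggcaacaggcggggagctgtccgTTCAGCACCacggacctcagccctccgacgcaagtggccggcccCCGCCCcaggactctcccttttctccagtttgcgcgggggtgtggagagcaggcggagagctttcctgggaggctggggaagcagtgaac
Cacnb3: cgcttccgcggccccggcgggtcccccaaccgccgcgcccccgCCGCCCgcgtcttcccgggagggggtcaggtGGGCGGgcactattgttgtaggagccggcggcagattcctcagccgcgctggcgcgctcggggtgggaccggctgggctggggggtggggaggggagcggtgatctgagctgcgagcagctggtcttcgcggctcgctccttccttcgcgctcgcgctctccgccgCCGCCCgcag
Kcnj8: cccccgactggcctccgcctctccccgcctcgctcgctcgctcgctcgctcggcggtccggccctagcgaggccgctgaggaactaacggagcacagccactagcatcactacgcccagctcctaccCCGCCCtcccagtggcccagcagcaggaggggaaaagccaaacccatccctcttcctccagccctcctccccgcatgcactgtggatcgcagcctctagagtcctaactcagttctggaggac
Kcne4: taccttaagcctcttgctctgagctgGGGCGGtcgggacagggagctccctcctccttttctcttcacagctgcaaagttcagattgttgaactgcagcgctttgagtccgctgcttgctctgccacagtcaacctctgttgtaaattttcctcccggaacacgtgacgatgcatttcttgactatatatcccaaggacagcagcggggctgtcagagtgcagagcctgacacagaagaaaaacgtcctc

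These windows are chr1:186632312-186632561 (plus strand), chr7:131666301-131666550 (plus strand), chr4:177246549-177246798 (minus strand) and chr9:87695798-87696047 (plus strand). Cacng3 held the RE1 part at 206 and 134 bases before its start and Kcnh6 held it at 206 bases, which makes 2 of 72 channel genes (2.78%), against 0.305% of all 33469 promoters in the table. A GC box was found in 38 of 72 (52.8%, against 30.5% of all promoters). TATAAA was found in 2 (2.78%, against 12.9%), CAGATG in 2 (2.78%, against 14.0%) and TGACGTCA in 0 (against 1.59%). The median GC content of these windows was 64.8% in the channel genes and 51.2% in all promoters. The channel genes enter with a single window per gene. The set of all promoters was neither reduced to a single window per gene nor limited to genes tested here, so these shares compare unlike sets. A match describes letters only and says nothing of binding.

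Among the 8 sodium channel alpha subunits, the pores themselves, the 4 main brain genes were all lower in AD-HFD than in Sham. None of the 8 passed the test in AD against Sham. Here and below, changes are log2 fold changes with their standard error and the adjusted p of edgeR's quasi-likelihood test, and averages of CPM are means ± SD over 4 libraries. Scn1a, the alpha subunit prominent in fast-spiking inhibitory neurons, stood at 248, 173, 189 and 190.1 CPM in the Sham libraries, 305, 258, 65.4 and 154 CPM in the AD libraries and 38.2, 51.4, 85.8 and 9.48 CPM in the AD-HFD libraries. Every AD-HFD library was below every Sham library, whereas AD-1 and AD-2 were above Sham and AD-3 and AD-4 below it. Its log2 fold change in AD-HFD against Sham was -2.11 ± 0.565 (adjusted p = 0.0165). Scn2a, found on axons of excitatory neurons, stood at 420.5, 349, 313 and 363 CPM in the Sham libraries, 169, 120.1, 168 and 189 CPM in the AD libraries and 78.2, 104, 263 and 34.6 CPM in the AD-HFD libraries, with AD-HFD-3 nearest to Sham, and changed by -1.59 ± 0.454 (adjusted p = 0.0213) in AD-HFD against Sham. Scn8a, the main subunit of mature axon initial segments and nodes of Ranvier, stood at 201, 147, 153 and 168 CPM in the Sham libraries, 108, 90.4, 53.9 and 58.7 CPM in the AD libraries and 18.9, 37.1, 114 and 11.8 CPM in the AD-HFD libraries. AD-HFD-3 was again the highest of its group, and the difference from Sham was -1.88 ± 0.563 (adjusted p = 0.0258). Scn3a, most abundant in the developing brain, was at 43 to 55.2 CPM in Sham, 31.3 to 43.6 CPM in AD and 9.08 to 41.6 CPM in AD-HFD, a change of -1.01 ± 0.339 (adjusted p = 0.0397) in AD-HFD against Sham.

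The balance between these 4 genes also varied by library. Scn1a made up 26.8, 24.3, 27.1 and 24.7% of their counts in Sham-1 to Sham-4, 49.7, 51.4, 20.5 and 34.7% in AD-1 to AD-4, and 24.7, 23.6, 17 and 14.6% in AD-HFD-1 to AD-HFD-4. It was thus highest in AD-2 and AD-1, then in AD-4, and lowest within AD in AD-3. For Scn3a the Sham shares were 5.97 to 6.5% and the AD-HFD shares 8.25 to 14%, without overlap. The AD shares were 5.11, 6.68, 9.96 and 9.79% in AD-1 to AD-4. AD-2, AD-3 and AD-4 were thus also above every Sham library, and AD-3 and AD-4 lay within the AD-HFD range. Wilson 95% intervals extend at most 1.57 points to either side for Scn1a and 1.54 for Scn3a and cover counting error only, and the shares are not scaled for transcript length. They are descriptions without a test. Further alpha subunits were low: Scn4a, the skeletal muscle subunit, averaged 1.32 ± 0.144 CPM in Sham (SD, n = 4), and Scn9a, known from sensory and hypothalamic neurons, 5.73 ± 0.967 CPM in Sham and 13.6 ± 8.31 CPM in AD. Scn7a, a sodium-sensing relative that does not open by voltage, was at 0.234 to 1.21 CPM in Sham and at 5.51, 4.23, 0.923 and 11 CPM in AD-1 to AD-4. None of these passed the test.

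**Figure D3:**
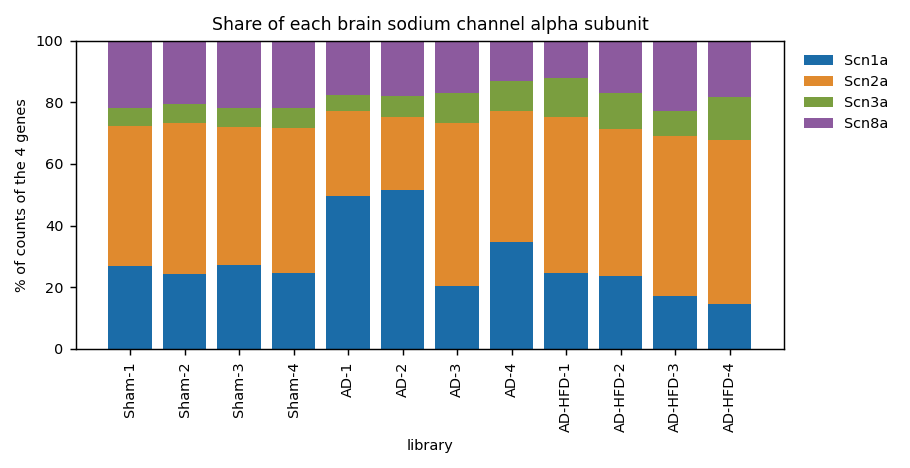
Bars show, for each library, how the counts of Scn1a, Scn2a, Scn3a and Scn8a divide among the 4 genes, in percent of their summed counts (axis 0 to 100). The Scn1a share is widest in AD-1 and AD-2, at 49.7% and 51.4%, and narrowest in AD-HFD-4.

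Sodium channel beta subunits are small membrane proteins that tether the pore to the cell surface and to adhesion partners, and Scn2b and Scn4b were lower in AD-HFD than in Sham. Scn4b, which shapes fast repeated firing and is abundant in striatal and cerebellar output neurons, stood at 188, 127, 266 and 85.6 CPM in the Sham libraries, 248, 271, 166 and 72.4 CPM in the AD libraries and 18, 26.3, 34.5 and 10.3 CPM in the AD-HFD libraries. All 4 AD-HFD libraries were below every AD and Sham library. The log2 fold change was -2.9 ± 0.493 (adjusted p = 0.00322) against Sham and -3.09 ± 0.497 (adjusted p = 0.0605) against AD, where the latter did not pass the threshold. The mean log2 CPM of 10 striatum genes was 5.03, 4.6, 5.97 and 3.92 in the Sham libraries. It was 2.76, 3.6, 5.29 and 3.84 in the AD libraries and 3.65, 4.2, 3.67 and 3.52 in the AD-HFD libraries. The part of this list in the Scn4b level was not tested. Scn2b stood at 70.3, 60.2, 70.4 and 63.4 CPM in the Sham libraries, 52.8, 48.9, 26.1 and 55.5 CPM in the AD libraries and 10.8, 20.9, 52 and 6.29 CPM in the AD-HFD libraries, and changed by -1.55 ± 0.507 (adjusted p = 0.0355) against Sham. For Scn3b no comparison passed, and AD-HFD-3 held 364 CPM against 48.6 to 89.1 CPM in the other AD-HFD libraries.

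The channels of the Kcna group, most of them delayed rectifiers, repolarize axons and set the firing threshold. They gave 1 call among 6 genes over all comparisons. Kcna1, found at the flanks of nodes of Ranvier, stood at 26.4, 27.2, 30.8 and 22.4 CPM in the Sham libraries, 47.3, 43.6, 31.5 and 20.4 CPM in the AD libraries and 15.1, 16.8, 20.9 and 9.98 CPM in the AD-HFD libraries, with all AD-HFD libraries below Sham and a change of -0.77 ± 0.273 (adjusted p = 0.0487) in AD-HFD against Sham. Against AD its log2 fold change was -1.19 ± 0.274 (adjusted p = 0.0605), and that of Kcna6 was -0.90 ± 0.215 (adjusted p = 0.0605). Kcna6 stood at 289, 299.6, 149 and 199.9 CPM in AD and 142, 128, 119 and 114 CPM in AD-HFD, without overlap. Kcna2, the axonal partner of Kcna1, ranged widely in AD-HFD, at 3.68, 90.3, 168 and 19.3 CPM against 249 to 301 CPM in Sham, and no comparison passed the test. Kcna3, a channel also of microglia and T cells, averaged 6.05 ± 0.44 CPM in Sham, 7.08 ± 2.18 CPM in AD and 7.59 ± 1.08 CPM in AD-HFD. Kcna4 averaged 20.4 ± 1.66, 15.9 ± 9.95 and 15.4 ± 10.6 CPM and Kcna5 averaged 2.57 ± 1.09, 2.95 ± 1.36 and 1.3 ± 0.27 CPM in the same order (SD, n = 4), and neither passed the test.

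The silent subunits, which form no channel alone but change the gating of delayed rectifiers, held 3 of the 9 genes called lower in AD against Sham. Kcnv1, a silent subunit known from cortex and hippocampus, stood at 97.5, 81.6, 72.1 and 88.6 CPM in the Sham libraries, 1.0, 2.33, 18.2 and 3.05 CPM in the AD libraries and 19.3, 15.8, 39.4 and 8.85 CPM in the AD-HFD libraries. The AD libraries lay far below Sham, AD-3 least so, and the AD-HFD libraries lay below Sham as well, AD-HFD-3 least so. The log2 fold change was -3.78 ± 0.76 (adjusted p = 0.0174) in AD and -2.03 ± 0.70 (adjusted p = 0.0436) in AD-HFD. Removal of Sham-1 or of AD-4 ended the former call, and without AD-3, the highest AD library, the log2 fold change was -5.32. Kcng1 stood at 36.3, 28.8, 35.4 and 26 CPM in the Sham libraries, 3.81, 4.64, 6.22 and 4.21 CPM in the AD libraries and 5.09, 6.15, 30.5 and 3.29 CPM in the AD-HFD libraries. It was low in all AD libraries and in AD-HFD, except in AD-HFD-3, which reached the Sham level. It passed in AD, with -2.74 ± 0.588 (adjusted p = 0.0214), and not in AD-HFD against Sham, and AD-HFD against AD did not pass either. Kcns1 stood at 24.5, 18.9, 22 and 26.8 CPM in the Sham libraries, 10.3, 2.54, 8.77 and 5.44 CPM in the AD libraries and 6.15, 5.55, 5.57 and 1.5 CPM in the AD-HFD libraries, with both groups below Sham: -1.77 ± 0.436 (adjusted p = 0.036) in AD and -2.3 ± 0.446 (adjusted p = 0.00476) in AD-HFD. Kcns3 stood at 22, 19.1, 23.9 and 25.3 CPM in the Sham libraries, 12.3, 17.7, 19.9 and 4.28 CPM in the AD libraries and 7.07, 7.9, 16.9 and 9.45 CPM in the AD-HFD libraries, with every AD-HFD library below Sham and AD-HFD-3 the nearest, and a change of -1.13 ± 0.399 (adjusted p = 0.048) in AD-HFD.

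The other silent subunits did not pass. Kcnf1 was at 66.7 to 85 CPM in Sham and 18.4, 3.91, 64.9 and 26.8 CPM in AD, so that AD-3 was close to Sham and the other AD libraries were below it. Kcng4 showed the reverse order, at 8.59 to 11.8 CPM in Sham and 54.4, 74, 1.2 and 23.9 CPM in AD, with AD-3 the lowest library of all. Kcng2 averaged 10.1 ± 3.74 CPM in Sham and Kcns2 8.76 ± 2.27 CPM. The cortex and hippocampus list given above was likewise highest within AD in AD-3 and the thalamus list lowest there, but single genes of these lists differed. Prox1 of the former was at 37.7, 14.8, 19 and 39.1 CPM in AD-1 to AD-4, and Prkcd of the latter at 743, 8.96, 77.4 and 498 CPM, lower in AD-2 than in AD-3. The part of either list in the levels of these channel genes was not tested.

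The Kcnc genes encode fast potassium channels that allow high firing rates, and Kcnc1 and Kcnc2 were lower in AD-HFD than in Sham. Kcnc1 stood at 119, 87.3, 106 and 131 CPM in the Sham libraries, 191, 199, 47.5 and 110.0 CPM in the AD libraries and 23.8, 38.9, 59.9 and 8.38 CPM in the AD-HFD libraries, and Kcnc2 at 124, 90.8, 98.8 and 107 CPM in the Sham libraries, 324, 98.8, 46.3 and 234 CPM in the AD libraries and 27, 34.5, 55.7 and 13.5 CPM in the AD-HFD libraries. For both, every AD-HFD library was below every Sham library, and in AD 3 libraries lay within or above the Sham range while AD-3 lay below it. The log2 fold changes against Sham were -1.76 ± 0.529 (adjusted p = 0.026) and -1.69 ± 0.532 (adjusted p = 0.031). Against AD, Kcnc2 had -2.43 ± 0.545 (adjusted p = 0.0605). The class had the lowest median of all classes in AD-HFD against AD, -2.06, and Kcnc4 did not pass in any comparison, at 25.3 ± 17 CPM in AD-HFD against 66.7 ± 9.03 CPM in Sham. The A-type channel genes Kcnd1 and Kcnd3, which open below threshold and delay firing, gave no calls, and Kcnd3 averaged 58.9 ± 12.7 CPM in Sham, 76.7 ± 13.5 CPM in AD and 43.7 ± 25.1 CPM in AD-HFD. Kcnd1 averaged 8.09 ± 1.22, 7.37 ± 2.4 and 5.65 ± 1.88 CPM.

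Of the Kcnq genes, whose slow current holds back repeated firing (the M current), Kcnq5 was lower in both groups. It stood at 213, 184, 163 and 187 CPM in the Sham libraries, 20.4, 22, 88.2 and 18 CPM in the AD libraries and 20.8, 36.6, 84.1 and 15 CPM in the AD-HFD libraries. In AD, AD-3 stood apart from the other 3 libraries, and in AD-HFD it was AD-HFD-3 that stood highest. The log2 fold change was -2.33 ± 0.60 (adjusted p = 0.042) in AD and -2.25 ± 0.598 (adjusted p = 0.016) in AD-HFD. Kcnq3, a subunit of the neuronal M channels, did not pass and averaged 17.2 ± 3.73 CPM in Sham, 11.5 ± 3.94 CPM in AD and 9.87 ± 5.17 CPM in AD-HFD. Kcnq1, an epithelial and cardiac channel, is described with the choroid plexus genes.

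The Kcnh genes, relatives of ether-a-go-go, gave 1 call in AD and 3 in AD-HFD, all lower than Sham. Kcnh4, a forebrain channel, stood at 11.2, 8.56, 10.1 and 13.3 CPM in the Sham libraries, 1.52, 2.57, 6.0 and 3.41 CPM in the AD libraries and 2.5, 6.92, 3.94 and 2.1 CPM in the AD-HFD libraries; all AD and AD-HFD libraries were below Sham, with log2 fold changes of -1.67 ± 0.428 (adjusted p = 0.0413) and -1.48 ± 0.424 (adjusted p = 0.0219). Kcnh5 and Kcnh7, the latter overlapping Gca, passed in AD-HFD, with -1.15 ± 0.371 (adjusted p = 0.034) and -1.68 ± 0.514 (adjusted p = 0.0275). Kcnh2, the channel of rapid repolarization in heart, passed in neither comparison with Sham or AD: levels were 32.3 to 39.7 CPM in Sham, 109, 87.2, 27.9 and 117 CPM in AD-1 to AD-4 and 18.6, 27.4, 31.9 and 8.72 CPM in AD-HFD-1 to AD-HFD-4. It was low in AD-3 and high in the other AD libraries, and AD-HFD against AD gave -1.97 ± 0.434 (adjusted p = 0.0605). Kcnh3, typical of forebrain, was instead highest within AD in AD-3, at 1.18, 0.904, 57.1 and 3.74 CPM in AD against 105 to 166 CPM in Sham; it did not pass, and it overlaps Mcrs1. Kcnh1 averaged 65.3 ± 11.1 CPM in Sham and 27.4 ± 36.1 CPM in AD, and Kcnh6 2.97 ± 0.478 and 6.0 ± 2.86 CPM, and neither passed.

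Auxiliary subunits of voltage-gated potassium channels moved in both directions. Kcnip3, a calcium sensor that binds A-type channels and also DNA, stood at 129, 84.8, 109 and 144 CPM in the Sham libraries, 19.3, 24.4, 54.4 and 15.7 CPM in the AD libraries and 26.5, 57.5, 79.1 and 18 CPM in the AD-HFD libraries. Every AD and AD-HFD library was below Sham, with -2.03 ± 0.482 (adjusted p = 0.031) in AD and -1.37 ± 0.472 (adjusted p = 0.0437) in AD-HFD. Kcnip4, of the same family, was lower in AD-HFD: it stood at 107, 105, 88 and 114 CPM in Sham, 123, 62.3, 33.8 and 91.5 CPM in AD and 24.6, 17.9, 48.7 and 10.2 CPM in AD-HFD, a change of -2.03 ± 0.454 (adjusted p = 0.00808) against Sham. Kcnip1 had -1.05 ± 0.256 (adjusted p = 0.0605) in AD-HFD against AD, at 37.4, 52.8, 22.5 and 46.8 CPM in AD and 20.1, 20.8, 23.2 and 12.7 CPM in AD-HFD. Kcnip2 did not pass, at 13, 12.5, 61.8 and 29.2 CPM in AD and 18.4, 22.8, 54.3 and 18.1 CPM in AD-HFD, where AD-3 and AD-HFD-3 were near the Sham range of 41.9 to 60.3 CPM.

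Kcne4 and Kcne5 encode single-pass subunits that restrain delayed rectifiers, and both were under 1 CPM in Sham on average. Kcne4 stood at 0.321, 1.15, 0.442 and 0.804 CPM in the Sham libraries, 1.63, 0.904, 5.38 and 2.36 CPM in the AD libraries and 3.68, 6.02, 3.47 and 5.22 CPM in the AD-HFD libraries. All AD-HFD libraries were above Sham, as were AD-1, AD-3 and AD-4, and the log2 fold change in AD-HFD was 2.76 ± 0.549 (adjusted p = 0.00516). Kcne5 stood at 1.14, 0.831, 0.987 and 0.804 CPM in the Sham libraries, 3.5, 3.88, 1.23 and 2.47 CPM in the AD libraries and 0.92, 1.21, 1.41 and 1.23 CPM in the AD-HFD libraries; it was higher in AD, 1.55 ± 0.354 (adjusted p = 0.0271), with AD-3 nearest to Sham. Of the beta subunits of the Kcna channels, Kcnab2 was lower in AD-HFD, at 32, 49.2, 181 and 27.5 CPM against 206, 159.6, 202 and 234 CPM in Sham, with AD-HFD-3 within the Sham range, a change of -1.47 ± 0.504 (adjusted p = 0.0428); it overlaps Nphp4. Kcnab1 averaged 141 ± 6.13 CPM in Sham, 124 ± 49.5 CPM in AD and 99.5 ± 75.6 CPM in AD-HFD, and Kcnab3 29 ± 5.97, 42.2 ± 21.4 and 12.4 ± 8.34 CPM; neither passed. Kcne2 is described with the choroid plexus genes.

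Potassium channels opened by calcium or sodium held the largest rise of all channel genes in AD-HFD against Sham, that of Kcnn4. This gene averaged under 1 CPM in Sham and was included through the groups where it was higher, so its rank is not independent of the selection. Kcnn4, the intermediate-conductance calcium-activated channel known from microglia, red cells and endothelium, stood at 0.409, 0.671, 0.442 and 0.569 CPM in the Sham libraries, 0.727, 0.321, 3.14 and 2.61 CPM in the AD libraries and 7.0, 8.96, 1.78 and 16.2 CPM in the AD-HFD libraries. AD-HFD-4 was the highest library and AD-HFD-3 the lowest of its group, the reverse of most channel genes, and the log2 fold change was 4.01 ± 0.765 (adjusted p = 0.00453). Microglia markers rose in the same comparison, with 7 of 12 called higher and 1 lower. Red blood cell markers had 6 of 6 called higher and endothelium markers 3 of 5. Of all genes tested, 19.7% were called higher and 12.9% lower. The mean log2 CPM of the microglia list was 4.3 to 4.41 in Sham and 5.52, 5.3, 4.83 and 5.61 in AD-HFD-1 to AD-HFD-4, and that of the red cell list was 2.25 to 3.27 and 4.91, 4.45, 2.89 and 6.81. For the endothelium list it was 4.66 to 5.1 in Sham and 6.26, 5.15, 4.32 and 7.52 in AD-HFD-1 to AD-HFD-4. The part of these 3 lists in the Kcnn4 level was not tested.

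The small-conductance channels, which carry the afterhyperpolarization, split by gene. Kcnn3, also expressed by dopamine neurons, stood at 3.42, 3.74, 4.01 and 2.51 CPM in the Sham libraries, 10.2, 5.13, 7.63 and 11.4 CPM in the AD libraries and 6.05, 11.4, 9.5 and 3.73 CPM in the AD-HFD libraries, with every AD library above Sham and AD-HFD-4 within the Sham range. It rose in AD, 1.32 ± 0.358 (adjusted p = 0.0496), and in AD-HFD, 1.17 ± 0.358 (adjusted p = 0.0282). Kcnn2 was lower in AD-HFD, at 7.46, 5.74, 13.8 and 3.03 CPM against 23, 19.6, 20.1 and 23.4 CPM in Sham, -1.52 ± 0.373 (adjusted p = 0.0117). Kcnn1 did not pass and averaged 17.6 ± 4.5, 14 ± 9.7 and 10.1 ± 5.39 CPM in Sham, AD and AD-HFD. Kcnt2, a sodium-activated channel, stood at 38.7, 43.7, 36.3 and 41 CPM in the Sham libraries, 12.9, 6.77, 8.77 and 13.8 CPM in the AD libraries and 4.63, 8.1, 19.9 and 3.33 CPM in the AD-HFD libraries. Every AD and AD-HFD library was below Sham, with -1.92 ± 0.457 (adjusted p = 0.0313) and -2.15 ± 0.461 (adjusted p = 0.00681). Its relative Kcnt1 did not pass and averaged 66.1 ± 13.7, 52.1 ± 17.9 and 31.6 ± 22.1 CPM. Kcnmb2, an inactivating beta subunit of the large-conductance channel, stood at 2.69, 3.83, 2.69 and 3.55 CPM in the Sham libraries, 4.68, 4.73, 2.46 and 6.97 CPM in the AD libraries and 1.22, 1.05, 1.88 and 0.765 CPM in the AD-HFD libraries. AD-HFD lay below both other groups, with log2 fold changes of -1.37 ± 0.361 (adjusted p = 0.0156) against Sham and -1.93 ± 0.357 (adjusted p = 0.0605) against AD. The pore gene Kcnma1 averaged 47.9 ± 8.13, 37 ± 22.4 and 28.8 ± 20.6 CPM and the neuronal beta subunit Kcnmb4 80.5 ± 12, 33.3 ± 28.2 and 36.2 ± 17.4 CPM, and neither passed.

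Inward rectifiers set the resting potential and include the glial potassium channels and the channels gated by G proteins or by ATP. Of the 13 genes, Kcnj14 rose in AD, and in AD-HFD Kcnj8 rose and Kcnj3, Kcnj9 and Kcnj11 fell, all against Sham. Kcnj8, the vascular subunit of ATP-sensitive channels typical of pericytes and smooth muscle, stood at 6.6, 8.43, 6.97 and 8.57 CPM in the Sham libraries, 13.4, 16, 11.8 and 13.7 CPM in the AD libraries and 17, 19.3, 8.72 and 29.4 CPM in the AD-HFD libraries. All AD-HFD libraries lay above Sham, AD-HFD-4 most and AD-HFD-3 least, with 1.28 ± 0.296 (adjusted p = 0.00913). The pericyte and smooth muscle list stood at a mean log2 CPM of 4.12 to 4.69 in Sham and 4.73, 5.27, 4.59 and 5.71 in AD-HFD-1 to AD-HFD-4, with 5 of 9 genes called higher, and its part was not tested. The neuronal subunit Kcnj11 of the same type of channel was lower, at 17.7 ± 13.4 CPM in AD-HFD against 42.2 ± 4.09 CPM in Sham, a change of -1.26 ± 0.443 (adjusted p = 0.0472).

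Kcnj3 and Kcnj9 encode subunits of the G protein-gated channels that mediate slow inhibition. Kcnj3 stood at 57.8, 48.9, 38 and 58.3 CPM in the Sham libraries, 22.9, 15.3, 13.9 and 16.6 CPM in the AD libraries and 7.13, 9.91, 31.5 and 3.93 CPM in the AD-HFD libraries, a change of -1.95 ± 0.499 (adjusted p = 0.0139) in AD-HFD, and Kcnj9 at 106, 76.9, 97.5 and 111 CPM in the Sham libraries, 73.5, 31.8, 44.4 and 65 CPM in the AD libraries and 13.6, 24.1, 62.2 and 12.1 CPM in the AD-HFD libraries, a change of -1.8 ± 0.465 (adjusted p = 0.0143). Both were lower in every AD-HFD library than in any Sham library, and AD-HFD-3 was the nearest. Kcnj9 overlaps Igsf8, and reads of overlapping genes cannot be told apart where strand is not stated. Their partners Kcnj5 and Kcnj6 did not pass: Kcnj5 averaged 2.36 ± 0.186, 4.9 ± 1.09 and 2.73 ± 1.19 CPM in Sham, AD and AD-HFD, and Kcnj6 12.3 ± 2.98, 7.14 ± 4.28 and 5.22 ± 4.33 CPM. Kcnj14, a channel of motor and brainstem neurons, stood at 7.22, 7.54, 6.33 and 6.33 CPM in Sham, 12.7, 16.3, 8.92 and 13.3 CPM in AD and 6.67, 9.21, 6.66 and 4.72 CPM in AD-HFD, and rose by 0.90 ± 0.235 (adjusted p = 0.0438) in AD.

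Among the classical inward rectifiers, Kcnj4, known from forebrain neurons, was at 0.623, 0.759, 35.6 and 4.35 CPM in AD against 62.7 to 87.1 CPM in Sham, with AD-3 apart from the other AD libraries, and did not pass. Kcnj2 averaged 4.1 ± 0.536, 4.01 ± 0.46 and 4.63 ± 1.14 CPM, and Kcnj12 averaged 15.6 ± 1.61, 25.5 ± 8.58 and 8.49 ± 7.48 CPM. The glial channel genes Kcnj10 and Kcnj16, whose products form the potassium-buffering channel of astrocytes, were lowest within AD in AD-3. Kcnj10 stood at 81.4, 100.4, 11.7 and 38.2 CPM in AD-1 to AD-4 against 34.2 to 38.4 CPM in Sham and 14.1 to 27.4 CPM in AD-HFD. Kcnj16 stood at 3.39, 8.5, 5.99 and 4.72 CPM in the Sham libraries, 68.8, 79.8, 0.738 and 45.3 CPM in the AD libraries and 4.54, 3.7, 2.13 and 3.93 CPM in the AD-HFD libraries. It was lowest of all in AD-3 and high in the other AD libraries, and AD-HFD against AD gave -3.77 ± 0.877 (adjusted p = 0.0605); with AD-3 as the only AD library the log2 fold change was 2.26, with the sign reversed (adjusted p = 0.665 by edgeR's quasi-likelihood test). The astrocyte marker list was at 8.17, 8.25, 6.93 and 7.88 in AD-1 to AD-4, likewise lowest in AD-3.

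Leak channels with paired pore domains, which carry the resting potassium current, gave 2 higher and 2 lower genes in AD-HFD against Sham. Kcnk10, a mechanosensitive and lipid-sensitive channel, stood at 1.34, 1.31, 1.22 and 2.08 CPM in the Sham libraries, 3.29, 4.0, 12.2 and 3.01 CPM in the AD libraries and 5.42, 5.13, 9.66 and 3.79 CPM in the AD-HFD libraries. All AD and AD-HFD libraries were above Sham, AD-3 and AD-HFD-3 most, with 1.92 ± 0.492 (adjusted p = 0.0411) in AD and 2.01 ± 0.492 (adjusted p = 0.0115) in AD-HFD. Without AD-3 the AD value was 1.21. Kcnk5, an acid-sensitive channel of epithelia and immune cells, was at 0.643 to 1.39 CPM in Sham and at 2.27, 3.28, 1.81 and 6.25 CPM in AD-HFD, a change of 1.69 ± 0.491 (adjusted p = 0.0228). Kcnk1 stood at 109.6, 109, 105 and 117 CPM in the Sham libraries, 93.3, 72.7, 41.9 and 74.8 CPM in the AD libraries and 63.4, 32.1, 54.3 and 19 CPM in the AD-HFD libraries, a change of -1.39 ± 0.331 (adjusted p = 0.0105) in AD-HFD with every library below Sham. Kcnk4, a neuronal channel gated by stretch and arachidonic acid, stood at 4.54, 5.42, 13.5 and 4.09 CPM in AD-HFD against 26.8, 18.5, 22.4 and 23.4 CPM in Sham, -1.72 ± 0.423 (adjusted p = 0.0117). The other 6 leak channel genes, Kcnk2, Kcnk3, Kcnk9, Kcnk12, Kcnk13 and Kcnk15, did not pass in any comparison; Kcnk2 averaged 52.5 ± 8.18, 32.2 ± 10.5 and 33.4 ± 17.1 CPM and Kcnk13, known from microglia, 2.63 ± 1.46, 5.27 ± 2.18 and 5.16 ± 0.41 CPM. Kcnk3 and Kcnk9, acid-sensitive background channels, averaged 17.6 ± 1.06 and 10.1 ± 0.527 CPM in Sham and 12.2 ± 4.65 and 4.36 ± 3.55 CPM in AD-HFD. Kcnk12 averaged 8.9 ± 2.25 CPM in Sham and Kcnk15, which overlaps Rims4, 3.73 ± 1.21 CPM.

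Of the 7 calcium channel alpha1 subunits, only Cacna1a passed in any comparison. Cacna1a, the pore of the channel that triggers release at most central synapses, stood at 219, 148, 166 and 195 CPM in the Sham libraries, 140.3, 99.5, 134 and 107 CPM in the AD libraries and 31.5, 58.3, 167 and 21.4 CPM in the AD-HFD libraries. AD-HFD-3 lay within the Sham range and the other AD-HFD libraries far below, with -1.39 ± 0.497 (adjusted p = 0.0497), a call lost without any 1 library other than AD-HFD-3. Cacna1b, the second release channel, averaged 112 ± 13.6 CPM in Sham, 78.1 ± 8.74 CPM in AD and 54.1 ± 43.2 CPM in AD-HFD. The L-type genes, which signal to the nucleus, averaged 22 ± 8.21, 25.5 ± 10.8 and 16.1 ± 6.11 CPM for Cacna1c, which overlaps Dcp1b, and 47.4 ± 9.16, 31.9 ± 15.6 and 24.3 ± 19.7 CPM for Cacna1d. The low-voltage gene Cacna1g, the burst channel of thalamic relay cells, was at 165, 51.4, 105 and 129 CPM in AD against 61.6 to 89.7 CPM in Sham and 20.5, 33.2, 111 and 24.3 CPM in AD-HFD. Cacna1h was at 18.6 to 27.9 CPM in AD, below the Sham range of 34.3 to 44 CPM, and Cacna1e at 7.62 to 21.6 CPM in AD, below 24.9 to 30.6 CPM in Sham; neither passed.

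The auxiliary subunits that carry calcium channels to the membrane and the gamma family that does the same for AMPA glutamate receptors held the genes with the smallest adjusted p in AD against Sham, Cacng3 and Cacnb3. Cacng3, a gamma family member of cortical neurons that escorts AMPA receptors to synapses, stood at 189, 134, 137 and 186 CPM in the Sham libraries, 25.3, 29.5, 40.8 and 33.4 CPM in the AD libraries and 28.8, 39, 73.5 and 19.7 CPM in the AD-HFD libraries. All AD and AD-HFD libraries lay below Sham, and AD-HFD-3 was the nearest. The log2 fold change was -2.32 ± 0.346 (adjusted p = 0.00471) in AD and -2.0 ± 0.341 (adjusted p = 0.00324) in AD-HFD. Cacnb3, a cytoplasmic beta subunit of high-voltage calcium channels, stood at 261, 180.4, 219.6 and 255 CPM in the Sham libraries, 75, 74.4, 103 and 90.5 CPM in the AD libraries and 61.2, 100.4, 133 and 69 CPM in the AD-HFD libraries. It too was below Sham in all 8 other libraries, with log2 fold changes of -1.42 ± 0.238 (adjusted p = 0.00762) and -1.33 ± 0.237 (adjusted p = 0.00366); it overlaps Tuba1c in RefSeq's annotation, so some of its reads may be uncertain. In AD-HFD Cacnb4 and Cacng2, the latter the gamma subunit lost in the stargazer mouse, were lower as well, with -1.16 ± 0.374 (adjusted p = 0.0334) and -1.31 ± 0.426 (adjusted p = 0.0353).

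The remaining calcium channel auxiliaries did not pass. Cacna2d1, a gabapentin-binding subunit, averaged 76.7 ± 16, 38.6 ± 11.7 and 38.9 ± 32 CPM in Sham, AD and AD-HFD. Cacna2d2 averaged 64.1 ± 6.64, 94.3 ± 42.5 and 33.2 ± 16.1 CPM, and Cacna2d3 135 ± 16.8, 94.5 ± 35.8 and 70.6 ± 53.6 CPM. The spread in AD-HFD was wide for Cacna2d3, since AD-HFD-3 held 150.2 CPM and the others 34.1 to 51.2 CPM. Cacnb1 and Cacnb2 averaged 93.3 and 19.2 CPM in AD-HFD against 142 and 33.8 CPM in Sham. Among the gamma genes, Cacng7 averaged 189 ± 21.7, 231 ± 46.6 and 127 ± 59.2 CPM and Cacng8, a hippocampal AMPA receptor partner, 57.7 ± 13, 25.5 ± 16.7 and 34.4 ± 37.2 CPM. Cacng4, typical of glial precursors, averaged 62.7 ± 9.17, 109 ± 55.6 and 98 ± 56.6 CPM, with every AD library above Sham, and Cacng5 13.5 ± 5.65, 16.4 ± 6.01 and 9.53 ± 7.08 CPM.

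Of the 4 HCN genes, Hcn4 rose in both groups. Hcn4, the slow pacemaker channel of heart and of thalamic relay neurons, stood at 6.63, 5.4, 3.44 and 3.21 CPM in the Sham libraries, 52.2, 17.5, 10.1 and 42.3 CPM in the AD libraries and 20.3, 14, 42.1 and 7.29 CPM in the AD-HFD libraries. Every AD and AD-HFD library was above Sham, with AD-1, AD-4 and AD-HFD-3 highest. The log2 fold change was 2.7 ± 0.601 (adjusted p = 0.0244) in AD and 2.16 ± 0.593 (adjusted p = 0.0183) in AD-HFD. Thalamus markers were high in AD-1 and AD-4 and at Sham levels in AD-3, where Hcn4 was at 10.1 CPM, and in AD-HFD-3, where it was at 42.1 CPM. Hcn2 stood at 200.3, 288, 41.4 and 138 CPM in AD, with AD-3 the lowest library of all, against 111 to 134 CPM in Sham and 44 to 75.6 CPM in AD-HFD, and Hcn3 averaged 22.4 ± 2.97, 36.2 ± 16.9 and 17.2 ± 5.27 CPM. Kcnrg, the regulator taken in by its symbol, averaged 1.29 ± 0.203, 0.992 ± 0.398 and 0.847 ± 0.259 CPM and did not pass.

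**Figure D4:**
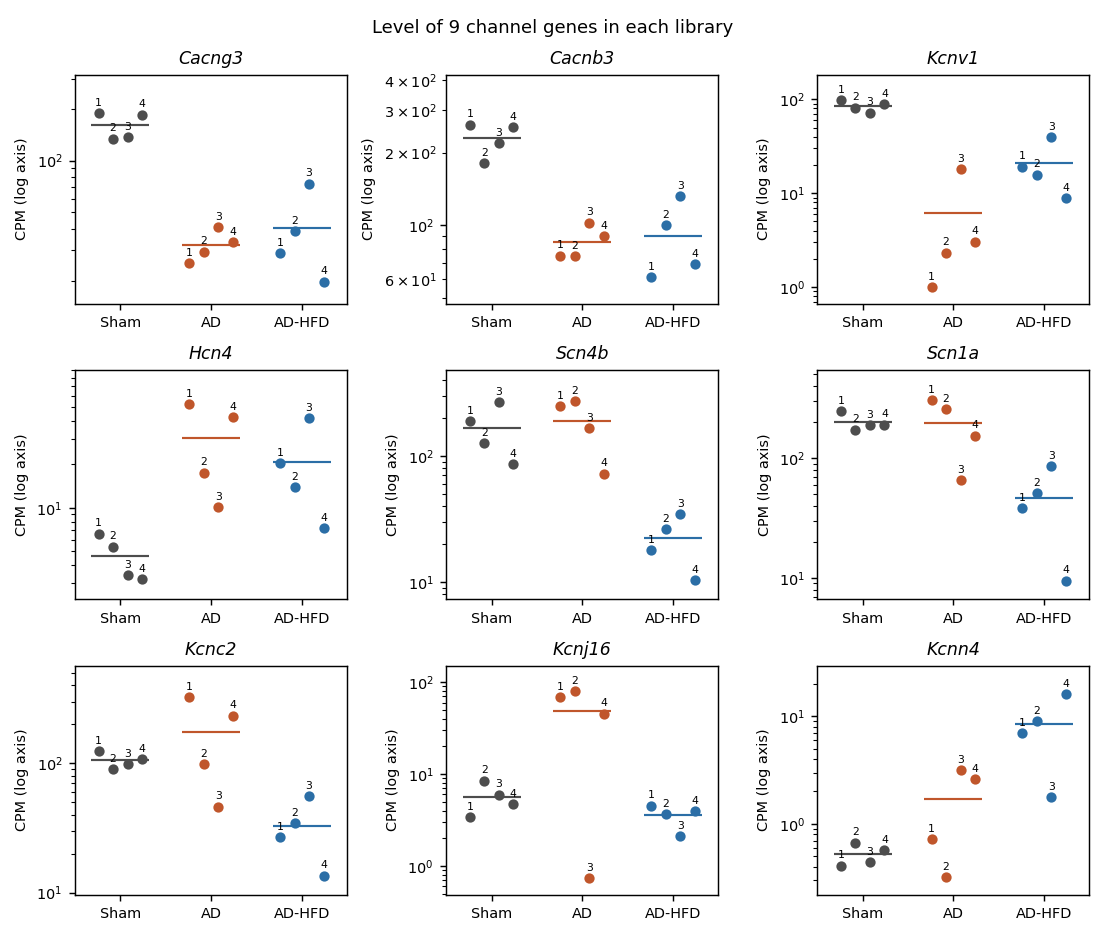
Each panel gives 1 gene, with CPM on a log axis, 1 point per library labelled with its replicate number (grey Sham, orange AD, blue AD-HFD), and a line at the group mean. Cacng3, Cacnb3 and Kcnv1 are lower than Sham in all AD and AD-HFD libraries, Scn4b is lower in every AD-HFD library than in any other, and Kcnj16 and Kcnc2 are high in AD-1 and AD-4 but low in AD-3.

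Some channel genes followed the choroid plexus, the epithelium that makes cerebrospinal fluid. Kcnj13, its apical inward rectifier, was at 0.526, 52.3, 28.1 and 0.435 CPM in the Sham libraries, 0.173, 0.0875, 0 and 0.181 CPM in the AD libraries and 76.2, 3.54, 0.219 and 0.20 CPM in the AD-HFD libraries. It was thus high in Sham-2, Sham-3 and AD-HFD-1. Kcne2, an auxiliary subunit of the same epithelium, was at 2.51, 52.1, 36.2 and 2.98 CPM in the Sham libraries, 2.04, 2.48, 3.6 and 2.18 CPM in the AD libraries and 48.4, 4.43, 2.81 and 1.13 CPM in the AD-HFD libraries, high in the same libraries, and Kcnq1, which Kcne2 can join, was at 2.2, 1.77 and 7.63 CPM there and at no more than 0.965 CPM elsewhere. Ttr, the main secreted product of that epithelium, was at 0.701, 4203, 4286 and 4.25 CPM in the Sham libraries, 2.49, 1.14, 3.6 and 1.41 CPM in the AD libraries and 9695, 484, 1.84 and 8.32 CPM in the AD-HFD libraries. None of the 3 channel genes passed in any comparison. With Sham-2, Sham-3, AD-HFD-1 and AD-HFD-2 left out, 0 channel genes were called in any of the 3 comparisons by edgeR's quasi-likelihood test. The loss was not particular to channel genes: 0.0205% of all genes were called in AD against Sham and 0% in the other comparisons. At an unadjusted p under 0.05 there were 24, 24 and 15 channel genes in AD against Sham, AD-HFD against AD and AD-HFD against Sham. The share of all genes at that limit was not computed for this fit, which keeps only 2 Sham and 2 AD-HFD libraries.

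**Figure D5:**
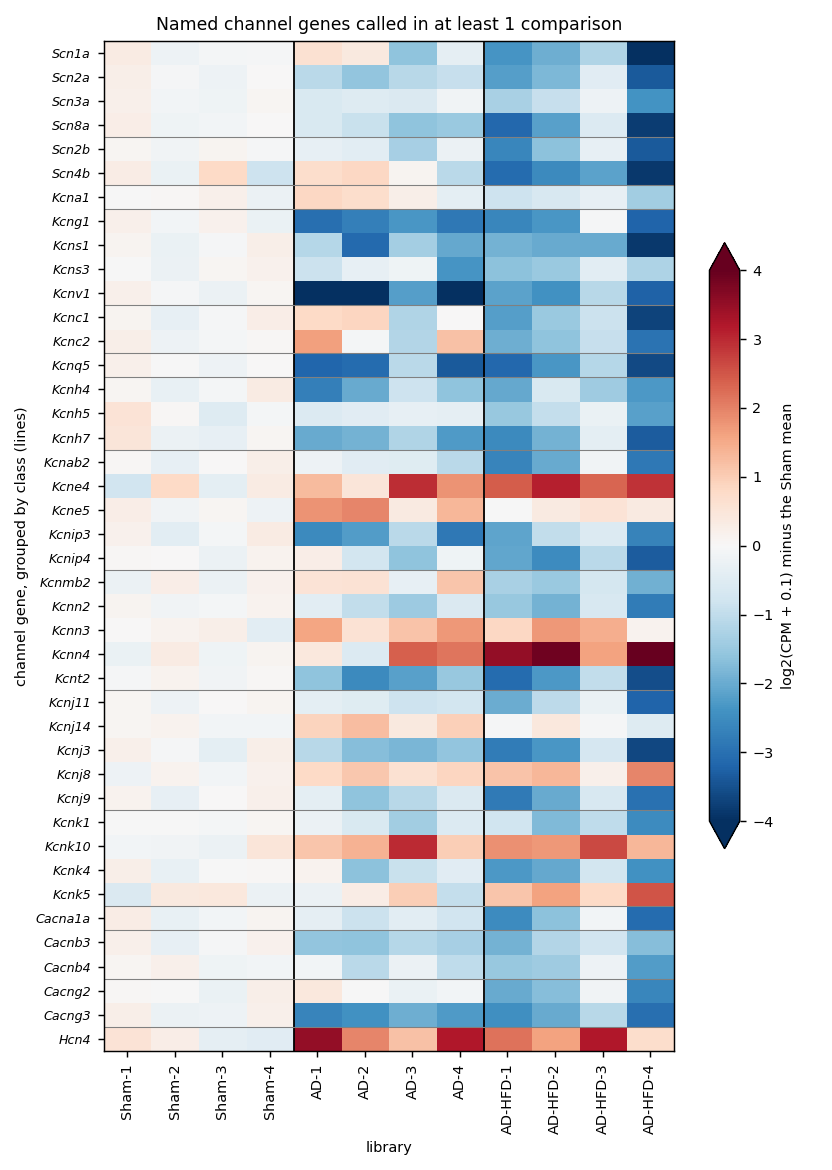
The vertical axis lists the named channel genes called in at least 1 comparison, in the order of their classes, and the horizontal axis the 12 libraries. The colour is the log2 of CPM plus 0.1, minus the mean of the Sham libraries (blue lower, red higher, clipped at -4 and 4); within AD-HFD most genes are lowest in AD-HFD-4 and highest in AD-HFD-3, and Hcn4, Kcnn4, Kcne4 and Kcnk10 are red in AD-HFD.

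Genes for proteins that anchor or modify these channels were counted from lists of 4 kinds, with the same background shares of all genes as above. Of 12 tested genes of the initial segment and node scaffold, 0 were called in AD against Sham and 3 were lower in AD-HFD against Sham: Ank3, the master organizer of the initial segment, at 45.4 to 138 CPM against 168 to 193 CPM in Sham, Cntnap1, of the paranodal junction, at 65.4 to 359.9 against 348 to 443 CPM, and the postsynaptic scaffold gene Dlg4. Of 9 sodium channel partners, 6 were lower in AD-HFD, among them the intracellular modulators Fgf12, Fgf13 and Fgf14 and the leak channel gene Nalcn with its partner Unc79. Fgf14 was at 0.665 to 4.56 CPM in AD-HFD against 6.06 to 9.58 CPM in Sham. Of 11 potassium channel partners, 7 were lower in AD-HFD (Dpp10, Amigo1, Lgi1, Adam22, Adam23, Lrrc55 and Akap5), and Akap5, an anchor of kinases at the membrane, was lower in AD as well, at 3.29, 4.7, 14.2 and 2.94 CPM against 51.6, 38.9, 36 and 41.9 CPM in Sham. Of 13 partners of HCN and calcium channels, Rims2, Calm2 and Calm3 were lower and Rrad higher in AD-HFD, and Calm2 was lower in AD. Rrad, a small G protein that inhibits calcium channels, was at 19.2 to 35.7 CPM in AD-HFD, above 2.64 to 4.7 CPM in Sham. None of the genes of these lists was called in AD-HFD against AD. The list medians in AD-HFD against Sham were -0.78, -1.21, -1.19 and -0.66, where the median of all genes was 0.03.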

How the data were processed

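RNA from brain was measured in 12 libraries, 4 in each of 3 groups. TRIzol was used for extraction, a Bioanalyzer for RNA integrity and a Yeasen mRNA kit for the libraries, per the labels' protocols. Per the submitters' processing notes, FastQC and Trimmomatic were used. The aligner, counter, strandedness, build and annotation are not given in the sources used here. The authors deposited raw counts per gene, whole numbers with no normalization, in 1 table of 31177 genes, 9127 of them unnamed new loci that stayed in the library sizes. Total counts ran from 26668974 to 35351792 per library.

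Differences were tested with edgeR 4.0.16 in R 4.3.3: genes with too few counts were removed with filterByExpr, TMM factors were applied, and all 12 libraries entered 1 quasi-likelihood fit with a mean for each group (residual df 9). For the 18850 genes tested, p-values were adjusted by Benjamini and Hochberg, and genes with an adjusted p under 0.05 were called. Standard errors were derived as the absolute log2 fold change over the root of F. The common dispersion had a square root of 0.415. For the selection of genes, CPM values are counts divided by the library total. All other CPM values are counts divided by the product of the library's total over the genes tested and its TMM factor. Neither is corrected for gene length, so levels are not compared between genes. The mean log2 CPM of a marker list uses a prior count of 2. Results of DESeq2 1.42.0, of limma 3.58.1 (voom) and of other alternatives are given in the closing section. No 2 libraries of a group agreed within sampling noise.

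Fold changes are given for the genes called (at most 12 in each direction by p, and the remaining called genes as well), for the 8 with the smallest p where fewer than 5 were called, and levels for these, for the most abundant gene of each class, for the 5 genes with the widest range in each group, and for a fixed list of main brain channels. Other channel genes are named to account for each class, after their values were seen, and some genes are not reported here by name. The channel genes and all lists were chosen with earlier results of these data known. Promoter windows came from RefSeq (build GRCr8), and 14 channel genes overlap another coding gene there, so that without a known strand setting their reads may be mixed.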

Additional observations from a re-analysis of the deposited data

Results flagged for a closer look

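Of 204 combinations of a named channel gene and a group of 4 libraries, 21 held a library far from the other 3, with a gap over the critical share of the range (Dixon's test at the 95% level); chance marks about 1 in 20 of groups not chosen for their spread. The named genes include some chosen for the widest range within a group (among them Kcne2, Kcnh3, Kcnj4, Kcnj13, Kcnq1 and Kcnv1), so that rate is not a reference for this count. In AD-HFD, 11 of them were high values of AD-HFD-3: Cacna1g at 111 CPM, Cacna1h at 46.6 CPM, Cacna2d1 at 86.4 CPM, Cacna2d3 at 150.2 CPM, Kcnab1 at 212 CPM, Kcnab2 at 181 CPM, Kcnf1 at 86.8 CPM, Kcng1 at 30.5 CPM, Kcnip2 at 54.3 CPM, Kcnk4 at 13.5 CPM and Scn3b at 364 CPM. In the other 3 AD-HFD libraries Kcng1, for example, was at 3.29 to 6.15 CPM and Scn3b at 48.6 to 89.1 CPM. AD-HFD-3 was also the library with the highest neuron marker list of its group, and the part of that difference was not tested.

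In AD, 5 were high values of AD-3: Kcnh3 at 57.1 CPM, Kcnj4 at 35.6 CPM, Kcnk10 at 12.2 CPM, Kcnq5 at 88.2 CPM and Kcnv1 at 18.2 CPM, where the other AD libraries held 0.904 to 3.74 CPM of Kcnh3 and 1.0 to 3.05 CPM of Kcnv1. AD-3 was the AD library with the highest cortex and hippocampus markers. AD-HFD-1 stood apart for Kcne2 at 48.4 CPM, Kcnj13 at 76.2 CPM and Kcnq1 at 7.63 CPM, and it held the most Ttr RNA of all libraries. Single values were Kcns1 at 1.5 CPM in AD-HFD-4, a low one, and Kcnk10 at 2.08 CPM in Sham-4.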

How the results depend on the processing

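In AD against Sham, where 14 channel genes were called, with 6.23% of all genes, DESeq2 called 25 (13.8% of all genes) and edgeR's legacy method 9 (4.55%). A fit of the groups compared alone called 30 (13.1%), and the replicate block 9 (4.51%), 7 of them among the 14. With limma voom there were 13 (4.74%), 9 of them among the 14. The block and limma voom each called 0 channel genes higher, so none of the 5 higher calls held there. In the other comparisons limma voom called 0 (0.0106%) in AD-HFD against AD and 50 (31.1%) in AD-HFD against Sham. At an adjusted p under 0.01 there were 2 (1.05%). Most calls of the fit given next, which leaves 1 library in AD, were not among the 14. With AD-3 as the only AD library there were 6 (6.21%). Leaving out AD-3 with AD-HFD-3 gave 52 (20.3%), AD-HFD-3 with AD-HFD-4 gave 32 (14.1%), AD-HFD-1, AD-HFD-2 and AD-HFD-4 gave 31 (11.8%), and Sham-2, Sham-3, AD-HFD-1 and AD-HFD-2 gave 0 (0.0205%). In AD-HFD against AD, where 0 were called, DESeq2 called 36 (17.6%), an adjusted p under 0.1 gave 34 (18.2%), and the replicate block 1 (0.0265%; Scn4b, log2 fold change -3.09, adjusted p = 0.0235 by edgeR's quasi-likelihood test). Leaving out AD-3 with AD-HFD-3 gave 72 (45.1%), AD-HFD-3 with AD-HFD-4 gave 27 (9.56%), and AD-HFD-1, AD-HFD-2 and AD-HFD-4 gave 1 (0.00969%). In AD-HFD against Sham, where 41 were called, with 32.7% of all genes, an adjusted p under 0.01 gave 9 (11.5%). Leaving out AD-3 with AD-HFD-3 gave 87 (53.5%), and leaving out Sham-2, Sham-3, AD-HFD-1 and AD-HFD-2 gave 0 (0% of all genes). Without AD-HFD-1, AD-HFD-2 and AD-HFD-4 the median log2 fold change was -0.17 over the channel genes and -0.03 over all genes. Leaving out each library in turn gave 2 to 32, 0 to 58 and 19 to 74 channel genes in these 3 comparisons. The alternative without AD-HFD-1, AD-HFD-2 and AD-HFD-4 was chosen after seeing the data. For single genes, 1456 values under these alternatives kept direction and side of the threshold, 450 lost the call, 46 gained one, and 1 reversed: Kcnj16 in AD-HFD against AD was 2.26 with AD-3 as the only AD library. The causes were not tested. Libraries with the same replicate number did not deviate together (correlations from -0.317 to 0.095, and at most 1 of 4 correlated best with its own number). The labels do not say that the numbers pair libraries. These correlations cannot exclude it, since they run over all genes and the libraries of a group differ widely. The block ended 11 of the single-gene calls, and in AD-HFD against Sham it called 44 channel genes (27.4% of all genes), 37 of them among the 41.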
